A study of Homo sapiens with 54 samples.

Results

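The immediate early genes followed here are 10 genes chosen by name: FOS, FOSB, JUN, JUNB, EGR1, IER2, IER3, MAFF, DUSP1 and ZFP36. All 10 had a row in the RNA-seq tables of 27043 genes and in the single-cell matrices. The study treated RH4, an established human fusion-positive rhabdomyosarcoma (FP-RMS) cell line whose treated cultures carry the genotype label wt, with P3FI-63, a small molecule found in a screen for PAX3-FOXO1 transcriptional activity, and its chemical analog P3FI-90. The study assigned both to the histone lysine demethylases afterwards. Bulk RNA-seq of cultures at 24 h comprised 3 DMSO libraries, 3 P3FI-90 libraries and 2 P3FI-63 libraries, the third P3FI-63 library being not analysed here. P3FI-63 was given at 10 µM, and P3FI-90 replicates 3 and 4 were given at 1 µM, while the labels do not state the dose of P3FI-90 replicate 1. Cultures were grown in medium with serum, and DMSO, the solvent, was the control throughout. Libraries without a replicate were the compound screen (7 compounds and DMSO, labelled 24 h although the study's results give 6 h for its P3FI-63 treatment), P3FI-90 and DMSO at 6 h and 2 cultures carrying non-targeting constructs (negative control CRISPRi at 7 days and scrambled at 48 h). A further 6 h DMSO culture and a 72 h scramble shRNA culture came as tables of coding genes only and entered no comparison. Xenografts were 2 DMSO and 2 P3FI-90 subcutaneous RH4 tumors from separate NSG mice treated daily for 5 days, which also hold mouse cells although the reads were aligned to the human genome. The other assays used were single-cell RNA-seq after 16 h (DMSO and P3FI-90, 1 library each), ATAC-seq after 4 h of P3FI-63 at 10 µM, and ChIP-seq after 24 h of P3FI-90.

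Immediate early genes are transcribed within minutes of a growth factor, serum or stress signal, because the factors that turn them on, such as SRF with its ELK partners and CREB, already sit in the cell and need only be phosphorylated by MAP kinases. Their transcripts carry AU-rich elements and decay fast, so the response is a short pulse in a normal cell. Several members shut the pulse off: DUSP1 dephosphorylates MAP kinases, and ZFP36 (tristetraprolin) binds AU-rich transcripts and promotes their decay. FOS, FOSB, JUN and JUNB are basic leucine zipper proteins that pair to form the transcription factor AP-1.

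Bulk expression was deposited as TPM, a transcript's share of its library scaled to 1000000, which corrects for gene length and library size and keeps no depth, so the counting error behind a low TPM is unknown. Genes of the myogenic tumor (MYOD1, MYOG, DES, MYCN, FGFR4, CDH15 and CHRNA1) reached 1 TPM in all 20 cultures and in the tumors, with summed levels of 1439 to 2437 TPM in cultures. No endothelial marker (0 of 4) reached 1 TPM in any culture or tumor, and of 5 leukocyte markers only CD68 did, with PTPRC at 0 in both P3FI-63 libraries at 24 h. Of 5 fibroblast and pericyte markers, 4 reached 1 TPM in cultures (summed level 96.8 to 1265 TPM), 4 in DMSO tumors and 5 in P3FI-90 tumors. COL3A1 alone averaged 809 TPM over the DMSO libraries at 24 h, so that gene does not mark other cells in these cultures. DCN, another gene of the list, averaged 9.31 TPM in DMSO tumors and 12.1 TPM in P3FI-90 tumors. Which cells it came from was not tested. P3FI-63 replicate 4 stood apart at 24 h, with a score of 110.6 on the axis that held 53% of the variance, against -41.3 to 13.5 in the other 7 libraries. The members' changes after P3FI-63 are therefore given with and without that library. Replicate numbers run with the flow cell named in the files, and the p-values measure the spread between libraries that the study calls biological replicates.

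Sequence just upstream of the start sites is shown for 6 members, the 5 that passed the test after P3FI-63 and JUN, whose level moved least, because sites through which such genes are switched on often lie there. Each run is the 250 bases before the start site in hg19, read 5′ to 3′ on the gene's strand, with capitals marking matches to a searched motif on either strand. The window of FOS is chr14:75745231-75745480 (+), that of FOSB chr19:45971003-45971252 (+), of MAFF chr22:38597689-38597938 (+), of EGR1 chr5:137800931-137801180 (+), of DUSP1 chr5:172198204-172198453 (-) and of JUN chr1:59249786-59250035 (-).
FOS: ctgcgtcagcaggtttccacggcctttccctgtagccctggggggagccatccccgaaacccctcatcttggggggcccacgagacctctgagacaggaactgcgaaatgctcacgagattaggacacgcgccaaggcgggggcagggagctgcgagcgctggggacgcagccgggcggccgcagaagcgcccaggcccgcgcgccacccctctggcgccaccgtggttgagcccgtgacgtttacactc
FOSB: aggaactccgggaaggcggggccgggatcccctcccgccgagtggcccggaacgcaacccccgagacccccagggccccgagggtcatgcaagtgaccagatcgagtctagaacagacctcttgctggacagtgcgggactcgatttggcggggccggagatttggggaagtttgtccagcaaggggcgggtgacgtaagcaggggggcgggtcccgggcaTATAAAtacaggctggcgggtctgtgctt
MAFF: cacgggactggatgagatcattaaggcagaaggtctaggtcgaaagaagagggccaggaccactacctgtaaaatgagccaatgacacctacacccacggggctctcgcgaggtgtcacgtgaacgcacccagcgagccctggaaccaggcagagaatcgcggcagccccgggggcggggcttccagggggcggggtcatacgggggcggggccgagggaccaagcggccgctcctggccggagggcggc
EGR1: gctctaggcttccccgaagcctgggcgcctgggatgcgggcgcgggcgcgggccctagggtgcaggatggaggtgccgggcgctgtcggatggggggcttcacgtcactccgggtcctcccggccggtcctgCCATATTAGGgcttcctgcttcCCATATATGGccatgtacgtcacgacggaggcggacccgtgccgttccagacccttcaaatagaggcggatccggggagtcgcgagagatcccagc
DUSP1: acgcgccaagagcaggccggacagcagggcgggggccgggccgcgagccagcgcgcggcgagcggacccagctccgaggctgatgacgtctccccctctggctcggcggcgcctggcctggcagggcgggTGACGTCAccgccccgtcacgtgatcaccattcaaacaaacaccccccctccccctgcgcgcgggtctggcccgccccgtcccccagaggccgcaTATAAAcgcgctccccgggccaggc
JUN: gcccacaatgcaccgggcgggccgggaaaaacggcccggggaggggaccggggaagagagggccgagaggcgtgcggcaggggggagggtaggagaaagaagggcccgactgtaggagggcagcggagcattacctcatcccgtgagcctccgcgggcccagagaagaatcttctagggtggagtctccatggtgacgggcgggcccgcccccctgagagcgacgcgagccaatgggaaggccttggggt

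Of 5 motifs searched, the CArG box bound by SRF lay in EGR1 only, at -118 to -109 and again at -96 to -87 from the start site, and 1.12% of the 18241 protein-coding windows of the same length held a CArG box. The cyclic AMP response element (TGACGTCA), the site of CREB, matched in DUSP1 at -120 to -113 and in 1.78% of all windows. A TATA motif (TATAAA) matched in FOSB at -29, in DUSP1 at -25 and in JUNB at -41, so in 3 of 10 members against 8.89% of all windows. The AP-1 site (TGANTCA) matched in 0 members and 4.94% of windows, and the heat shock element (TTC, GAA and TTC, set 2 bases apart) in 0 members and 0.36%. None of the matches overlapped another, and a motif without a match says only that these letters are not in the window. The member windows held 59.2 to 76.4% G and C, against a median of 60.8% over all windows.

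In untreated RH4 cells the members sat at very different levels. Over the 3 DMSO libraries at 24 h (replicates 1, 3 and 4, in that order throughout), JUN was at 165, 234 and 222 TPM, above at least 96.4% of all genes. IER3, a stress-induced regulator of survival signaling, was at 36.2, 27.3 and 22.4 TPM, and DUSP1 at 24.3, 28.7 and 26.0 TPM. The next level was IER2, a nuclear protein of the growth response, at 12.5, 16.0 and 18.5 TPM. JUN stood clear of every other member, the levels of IER3 and DUSP1 overlapped, and IER2 lay below both without overlap. JUNB (5.96, 3.93 and 7.01 TPM), ZFP36 (4.03, 6.00 and 2.97 TPM), EGR1 (4.37, 3.94 and 1.93 TPM) and MAFF (2.06, 3.83 and 1.48 TPM) followed, each overlapping its neighbour in this order. FOSB at 0.42, 0.46 and 0.41 TPM and FOS at 0.49, 0.23 and 0.54 TPM were lowest, overlapped each other and lay below MAFF. FOS was thus the lowest member in 1 library and near FOSB in the others, while its AP-1 partner JUN made up 64.6 to 73.2% of the summed TPM of the 10 genes.

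Over the 7 cultured controls, which add the 6 h and screen DMSO libraries and both non-targeting lines, FOS stayed between 0.23 and 0.66 TPM and FOSB between 0.20 and 0.55 TPM. JUN ranged from 51.2 to 234 TPM and IER3 from 2.42 to 36.2 TPM, the lowest of each being the 48 h scrambled library. Runs and conditions differ together across these controls, so the ranges are a description. In the second 6 h DMSO culture, whose table of coding genes sums to 966682 TPM, FOS was at 1.69 TPM and EGR1 at 8.90 TPM. The table of the 72 h scramble shRNA culture sums to 278032 TPM, so its levels are on another base. FOS was at 6.46 TPM there (percentile 70.4 of its coding genes) and EGR1 at 13.35 TPM (percentile 84.4). The narrow range of FOS therefore holds for the 7 controls only.

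After 24 h of P3FI-63 at 10 µM, FOS, FOSB, MAFF, EGR1 and DUSP1 rose, FOS from under 1 TPM to 18.8 and 317 TPM, while JUN overlapped its control levels. In bulk RNA, a higher level in each cell and more cells expressing a gene cannot be told apart. Genes averaging 1 TPM or more over the fitted libraries (12332 genes) were tested on log2(TPM + 1) with limma, in a fit of all 8 libraries at 24 h, and called at a Benjamini-Hochberg adjusted p under 0.05. FOS and FOSB passed the expression filter only through their P3FI-63 values, so they had to differ, and their calls are not set against the background. The other 8 members reached a mean of 1 TPM over the DMSO and P3FI-90 libraries too. Of these 8, 3 were called higher (MAFF, EGR1 and DUSP1) and 0 lower, against 0.94% called higher among the 12126 tested genes that reached 1 TPM in the same way. Over all genes tested, 2.37% were called (1.16% higher and 1.21% lower). The median log2 fold change was 2.13 for the 8 members and -0.37 for the 12126 genes, the value against which TPM changes in this comparison should be read.

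FOS, at 0.23 to 0.54 TPM in DMSO, was at 18.8 TPM in P3FI-63 replicate 3 and 317 TPM in replicate 4, a log2 fold change of 5.81. FOSB, its close relative, was at 9.76 and 140 TPM, a log2 fold change of 4.77. For both genes the test is taken from the fit of all genes without a filter, where the SE was 0.97 for FOS (limma adjusted p = 0.0335) and 0.90 for FOSB (limma adjusted p = 0.0454) and 1.97% of genes were called. Both P3FI-63 libraries lay far above all 3 DMSO libraries for both genes, and replicate 4 was the higher each time. MAFF, a small Maf protein that lacks an activation domain and pairs with factors such as NRF2, was at 40.8 and 237 TPM, a log2 fold change of 4.91 with an SE of 0.67 (limma adjusted p = 0.00854). EGR1, a zinc finger transcription factor and textbook SRF target, was at 18.5 and 76.9 TPM, a log2 fold change of 3.19 with an SE of 0.56 (limma adjusted p = 0.0232). Neither gene overlapped its DMSO range.

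JUN and JUNB did not pass the test. JUN was at 259 TPM in P3FI-63 replicate 3 and 204 TPM in replicate 4, within the DMSO range at replicate 4 (log2 fold change 0.17, SE 0.32, 95% interval -0.54 to 0.88, limma adjusted p = 0.781). JUNB was at 7.01 and 19.9 TPM, and its lower value equalled the highest DMSO value (log2 fold change 0.99, limma adjusted p = 0.317). JUN, at 64.6 to 73.2% of the members' summed TPM in DMSO, was at 42.2% in P3FI-63 replicate 3 and 12.8% in replicate 4, where FOS exceeded it. The summed level itself was 614 TPM and 1594 TPM, against 255.5 to 324 TPM in DMSO.

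Of the inhibitors of the response, DUSP1 was at 172 and 301 TPM, a log2 fold change of 3.07 with an SE of 0.36 (limma adjusted p = 0.00491). ZFP36 was at 10.3 and 103 TPM (log2 fold change 2.73 with an SE of 0.78, limma adjusted p = 0.104). IER3 was at 52.4 and 133 TPM (1.54, limma adjusted p = 0.0834) and IER2 at 25.1 and 61.6 TPM (1.29, limma adjusted p = 0.155). These last 3 genes lay above every DMSO library yet did not pass, and for each the P3FI-63 libraries lay far apart. Counted that way, 6 of the 8 members that did not need the P3FI-63 values to be tested had groups that did not overlap, all higher, against 6.97% of the genes filtered likewise (7.82% of all genes tested).

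**Figure D1:**
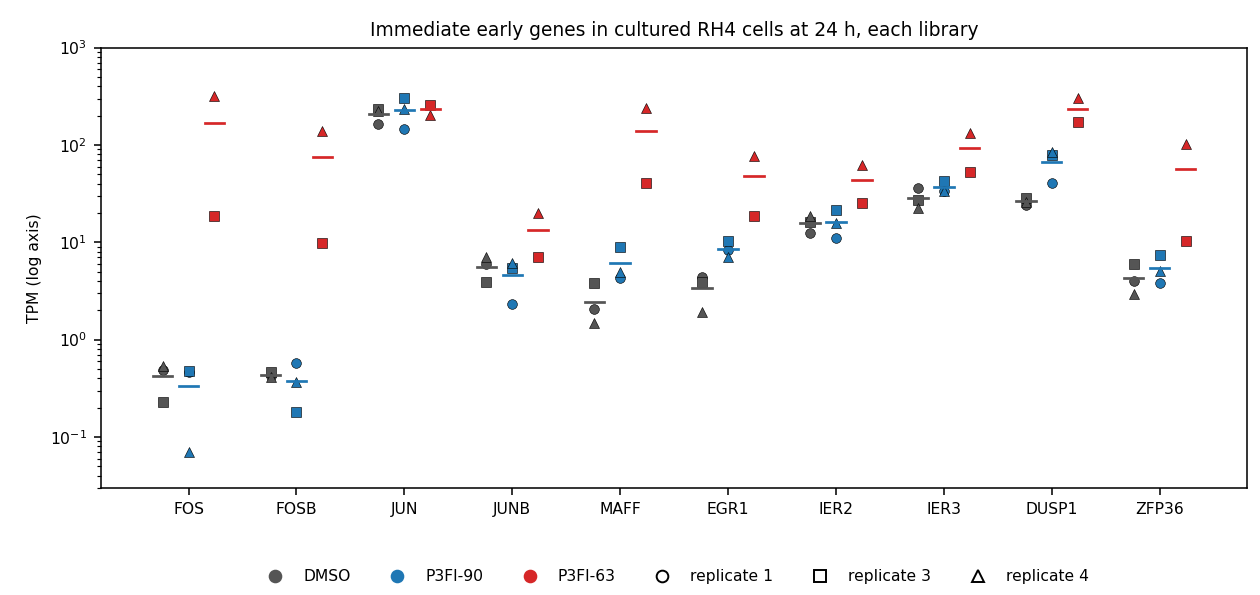
TPM of the 10 immediate early genes in each RH4 culture library at 24 h (vertical log axis), by gene (horizontal axis), colored by treatment, with the marker shape giving the replicate number and the bar the group mean. P3FI-63 replicate 4 is the highest library for 9 of the 10 genes, FOS spans 0.07 to 317 TPM, and the JUN values of the 3 treatments overlap.

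Within each replicate number, where treated and control libraries share a flow cell, every member but JUN was higher with P3FI-63 in both replicates, by unequal amounts. In replicate 3, 8 of the 8 members other than FOS and FOSB were higher with P3FI-63 than with DMSO (39.4% of genes with a mean of 1 TPM over the DMSO and P3FI-90 libraries were). Of them 3 were at least 2-fold higher (4.22% of these genes), MAFF by a log2 difference of 3.11, DUSP1 by 2.54 and EGR1 by 1.98. FOS was higher by 4.01 and FOSB by 2.88. In replicate 4, 7 of the 8 were higher (21.3% of these genes) and the same 7 at least 2-fold (4.55%), led by MAFF at 6.59, with JUN at -0.12, FOS at 7.69 and FOSB at 6.64. Leaving out a P3FI-63 library leaves 1, which is then assumed to vary like the DMSO and P3FI-90 libraries, so only effect sizes are given. Without replicate 4 the log2 fold change was 3.65 for MAFF, 2.67 for DUSP1, 2.19 for EGR1 and 0.34 for JUN. FOS was at 3.81 and FOSB at 2.91 in that fit. Without replicate 3, MAFF was at 6.16, DUSP1 at 3.47, EGR1 at 4.19 and JUN at -0.002, with FOS at 7.81 and FOSB at 6.62. Leaving out any DMSO library, or fitting P3FI-63 and DMSO alone, left MAFF and DUSP1 as the called members (0.348 to 0.432% of all genes called higher).

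With P3FI-90 at 24 h, FOS and FOSB stayed under 1 TPM. FOS was at 0.46, 0.48 and 0.07 TPM and FOSB at 0.57, 0.18 and 0.37 TPM, overlapping DMSO. The gene that stood out was DUSP1, at 40.6, 78.1 and 83.9 TPM, each above all DMSO libraries (log2 fold change 1.26, SE 0.33, 95% interval 0.53 to 1.995, limma adjusted p = 1). EGR1 was at 8.25, 10.3 and 6.99 TPM (log2 fold change 1.14, 95% interval 0.01 to 2.27, limma adjusted p = 1) and MAFF at 4.34, 9.01 and 4.93 TPM (1.04, 95% interval -0.31 to 2.39, limma adjusted p = 1). These 3 members lay wholly above DMSO, as 4.21% of all genes tested did, and 0 members lay wholly below it (7.73% of genes). Under limma, 0 of 10 members and 1 gene of 12332 (0.00811%) passed, and 244 genes had an unadjusted p under 0.05, DUSP1 and EGR1 among them. These SEs, intervals and p-values come from the fit of all 8 libraries. They therefore also carry the spread between the P3FI-63 libraries, and they do not use the replicate pairing. Fitting P3FI-90 and DMSO alone called 0 of 8 members tested (2 of 12188 genes), and the replicate block called 0 of 10 (3 of 12332 genes).

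The remaining members overlapped DMSO. JUN was at 145, 302 and 235 TPM, IER2 at 11.1, 21.5 and 15.9 TPM and ZFP36 at 3.81, 7.44 and 5.08 TPM, each lowest in replicate 1 and highest in replicate 3. IER3 was at 33.8, 43.0 and 33.4 TPM (log2 fold change 0.36, 95% interval -0.44 to 1.16). JUNB was at 2.33, 5.40 and 6.14 TPM, below its own-number control in replicates 1 and 4. Within replicate numbers 1, 3 and 4, P3FI-90 was above DMSO for 3, 8 and 6 of the 8 members other than FOS and FOSB (37.1, 42.2 and 41.1% of genes with a mean of 1 TPM over these libraries). DUSP1, EGR1 and MAFF were at least 2-fold higher in replicates 3 and 4 (3 of 8 members, against 1.44% and 1.24% of genes). None of the 8 was in replicate 1 (0.574%), where DUSP1 differed by 0.72, EGR1 by 0.79 and MAFF by 0.80 on the log2 scale. The dose of that replicate is not in its labels.

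The analogs, the only pair of compounds compared, were set side by side at 24 h, at 10 µM P3FI-63 and, for P3FI-90, 1 µM in replicates 3 and 4 and a dose not in the labels in replicate 1, so compound and dose cannot be told apart. With the P3FI-90 libraries as the base, MAFF was higher with P3FI-63 (log2 difference 3.87, SE 0.67, limma adjusted p = 0.0396), 1 of the 8 members that did not need the P3FI-63 values to be tested, against 0.264% of genes filtered likewise (of all genes, 0.673% were called, 0.422% higher). FOS differed by 5.91 and FOSB by 4.84, and in the fit without a filter FOS passed (limma adjusted p = 0.0451) and FOSB did not (limma adjusted p = 0.0655). DUSP1, higher with either compound than its DMSO values, differed by 1.81 (95% interval 0.99 to 2.63, limma adjusted p = 0.0785). EGR1 differed by 2.05 (0.79 to 3.32, limma adjusted p = 0.180) and JUN by 0.08 (-0.62 to 0.79, limma adjusted p = 0.919). For 7 of those 8 members the P3FI-63 and P3FI-90 libraries did not overlap, against 5.72% of genes filtered likewise (6.55% of all genes tested), JUN being the member that did. MAFF was lost with the replicate number as a block (limma adjusted p = 0.0555). It was also lost with a pseudocount of 0.1, without a filter, without the variance trend, and with P3FI-63 and P3FI-90 fitted alone. A mean of at least 5 TPM or median-ratio scaling kept it. Without P3FI-63 replicate 3 or 4, the lone P3FI-63 library is assumed to vary like the other groups, so no call is given. With any 1 of the P3FI-90 libraries left out, 0 members were called, with 0.105 to 0.147% of all genes called. These contrasts share libraries with the comparisons to DMSO.

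Genes that work beside the members were read from lists. Of 7 tested AP-1 and small Maf partners, 3 were higher after P3FI-63 and 0 lower: FOSL1, a FOS relative (90.1 ± 33.5 TPM, SD, n = 2, against 11.2 ± 2.95, n = 3; limma adjusted p = 0.0103), MAFK (41.2 against 5.45 TPM, limma adjusted p = 0.0470) and ATF3, a stress-induced bZIP repressor (244 ± 97.9 against 50.4 ± 6.75 TPM; log2 fold change 2.20, limma adjusted p = 0.00714). Of 8 other immediate early transcription factors that reached 1 TPM without the P3FI-63 libraries, 5 were higher, led by BHLHE40 (log2 fold change 3.68, limma adjusted p = 0.00760), the nuclear receptor NR4A1 (2.70, limma adjusted p = 0.0400) and KLF4 (2.13, limma adjusted p = 0.0196), with CSRNP1 (1.97) and KLF6 (1.53) the lowest of the 5. Of 20 other immediate early products that did so, 7 were higher, led by GADD45B (4.11, limma adjusted p = 0.0404), PPP1R15A, a regulator of eIF2α phosphatase (3.80, limma adjusted p = 0.0119), and DUSP5, an ERK phosphatase (3.67, limma adjusted p = 0.00466), with SGK1 (2.69), PLAUR (2.53) and CTGF (2.29) the lowest of the 7. ARC, at 0 TPM in every DMSO and P3FI-90 library, was tested only through P3FI-63, where its mean was 19.7 TPM. Among all genes filtered likewise, 0.94% were called higher. The medians of these 3 lists were 1.05, 1.75 and 0.83, against -0.37 for all genes filtered likewise. Of 14 upstream kinases and factors, among them SRF, ELK1, CREB1 and the MAP kinases, 0 were called and the median was -0.41, close to that of all genes.

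With P3FI-90, 0 genes were called in each of these 4 lists (background 0.00811%), and ATF3 was at a mean of 105 against 50.4 TPM (log2 fold change 1.04, limma adjusted p = 1). Heat shock genes, targets of another stress pathway, moved with the members after P3FI-63. Of 9 that reached 1 TPM without the P3FI-63 libraries, 6 were higher (0.94% of genes filtered likewise were) and 0 lower. They were led by HSPA1B (log2 fold change 6.21, limma adjusted p = 0.00261) and HSPA1A (5.95, limma adjusted p = 0.00344), with DNAJB1 (3.49), HSPH1 (2.23) and HSP90AA1 (1.33) the lowest of the 6. HSPA6, at a mean of 0.10 TPM in DMSO and 0.16 TPM with P3FI-90, averaged 1655 TPM with P3FI-63 and was tested only through that value. Their summed level was 7768 TPM in P3FI-63 replicate 3 and 24184 TPM in replicate 4, against 4560 to 4991 TPM in DMSO and 3720 to 4047 TPM with P3FI-90. Among markers of other cells, the summed level of 5 leukocyte genes, of which CD68 alone reached 1 TPM, was 47.7 and 17.8 TPM with P3FI-63 against 3.07 to 11.7 TPM in DMSO, and 0 of 3 fibroblast and pericyte genes were called. The part of either list in the members' change was not tested. The tumor's own myogenic list had 2 of 7 genes lower after P3FI-63, against 149 of the 12332 genes tested. They were MYOG (log2 fold change -2.06, limma adjusted p = 0.0178) and the oncogene MYCN (-1.83, limma adjusted p = 0.0205).

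In the compound screen, with 1 library per compound and no test, NP-005584 moved the most members. FOS was at 9.93 TPM against 0.47 TPM in the screen's DMSO, a log2 ratio of 2.89 on the TPM + 1 scale. IER3 (69.6 against 27.8 TPM), ZFP36 (10.9 against 4.30), DUSP1 (37.8 against 16.8), IER2 (32.6 against 14.7) and MAFF (5.21 against 1.98) were also at least 2-fold higher, making 5 of the 8 members that averaged 1 TPM over the 7 other screen libraries, against 5.26% of genes filtered likewise (5.67% of genes that averaged 1 TPM over all 8). FOS reached that mean only through NP-005584 and FOSB, at 1.65 against 0.39 TPM, did not reach it, so neither was counted. None was 2-fold lower (5.13% of genes were). JUN went the other way, at 130 against 172 TPM. Among lists, 7 of 20 other immediate early products reached 2-fold with NP-005584, and 2 of 10 heat shock genes, whose median was -0.06. These lists were filtered on all 8 screen libraries, so a gene that passed only through NP-005584 had to be higher.

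The P3FI-63 library of the screen had 1 of these 8 members at least 2-fold higher (2.29% of genes, or 2.3% with NP-005584 in the filter) and 0 as much lower (0.805%), MAFF at 6.56 against 1.98 TPM. FOS, not counted, was at 2.35 against 0.47 TPM. DUSP1 was at 27.5 against 16.8 TPM, and EGR1, IER2, IER3 and ZFP36 were at or near the control. In the same library 7 of 10 heat shock genes reached 2-fold, with a median log2 ratio of 1.52. The filter of this list used the P3FI-63 library too, so a gene that passed only through it had to be higher. DUSP1 was the member at least 2-fold higher with KUC100517N (38.1 TPM, 0.61% of genes) and with KUC102648N (34.6 TPM, 0.545% of genes), and 0 members were 2-fold lower with either (0.349 and 0.333% of genes). The other 3 compounds had 0 of 9 members past 2-fold, FOSB being under the filter. Of all genes, IMMLG-5770 moved 0.203% higher and 0.252% lower by that measure, and the remaining pair moved 0.276% and 0.236%, and 0.561% and 0.179%. After 6 h of P3FI-90, 0 of 8 members reached 2-fold (3.9% of genes were higher and 0.647% lower), FOS and FOSB being under the filter and not counted, with DUSP1 at 21.6 against 23.9 TPM, EGR1 at 4.71 against 3.11 TPM and FOS at 0.14 against 0.50 TPM.

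**Figure D2:**
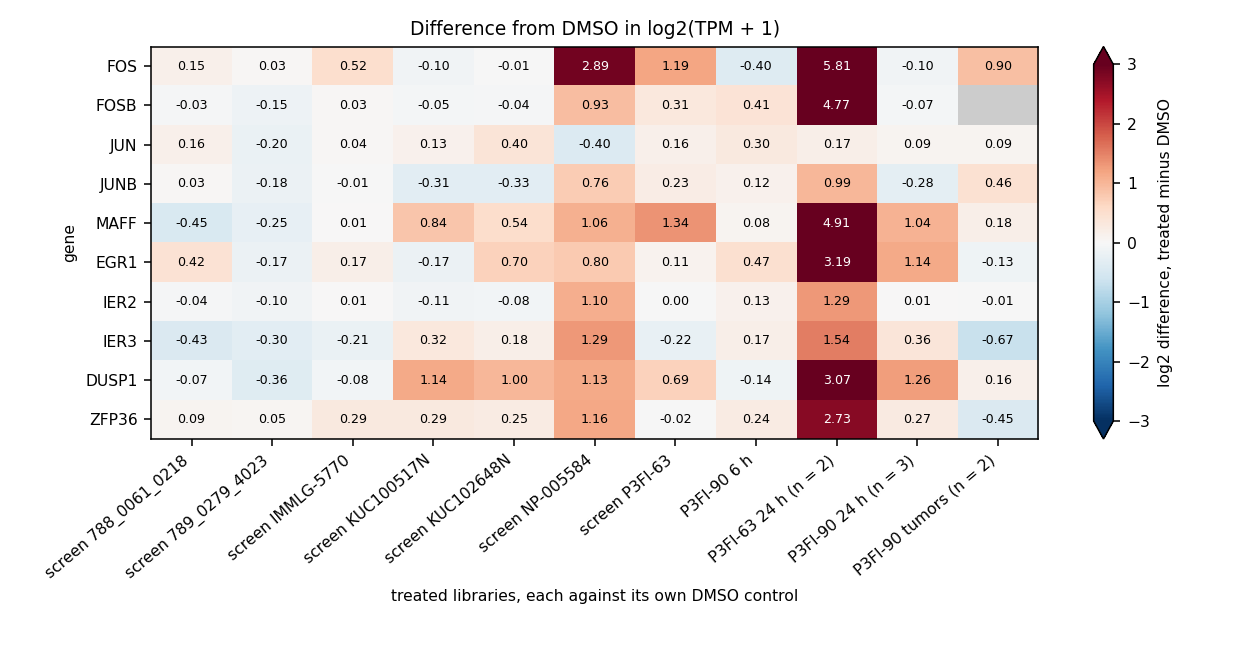
Treated minus DMSO difference in log2(TPM + 1) for each immediate early gene (rows) in each comparison (columns), with the value printed in each square; colors stop at 3 in either direction, and screen and 6 h columns rest on 1 library each. Red is deepest in the P3FI-63 24 h column, NP-005584 has 9 positive squares and a negative one for JUN, and the gray square is FOSB in tumors, which was under the filter.

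DMSO tumors and DMSO cultures at 24 h held the members in different proportions. In the 2 DMSO tumors FOS was at 1.75 and 6.83 TPM and EGR1 at 12.2 and 26.8 TPM, above every DMSO culture at 24 h (means 10.2 and 5.71 times higher). IER3 at 7.15 and 3.88 TPM, JUN at 89.98 and 94.1 TPM and DUSP1 at 12.7 and 13.0 TPM lay below every DMSO culture (5.20, 2.25 and 2.05 times higher in culture). Groups that did not overlap were common in this comparison, at 21.3% of genes higher and 23.3% lower, so 2 and 3 of 9 members in those directions are near the background, and FOS was among the 9 only through its tumor values. Growth site, host cells, handling and sequencing run cannot be told apart here.

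P3FI-90 for 5 days gave no call among the 9 members tested in tumors (2 genes of 12357, 0.0162%, passed under limma, and 849 had an unadjusted p under 0.05). FOS was at 8.28 and 7.04 TPM, above both DMSO tumors (log2 fold change 0.90, 95% interval -0.24 to 2.04, limma adjusted p = 0.573). DUSP1 was at 14.2 and 14.8 TPM, also above both (0.16, 95% interval -0.56 to 0.88, limma adjusted p = 0.818). EGR1 was at 17.3 and 15.7 TPM, between its DMSO values. IER3 was at 3.46 and 2.51 TPM and ZFP36 at 2.13 and 3.06 TPM, both below DMSO. Groups without overlap were thus 2 of 9 higher (4.61% of genes) and 2 of 9 lower (40% of genes, whose median log2 fold change was -0.30). FOSB, at 0.39 to 0.61 TPM in all 4 tumors, was under the filter.

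**Figure D3:**
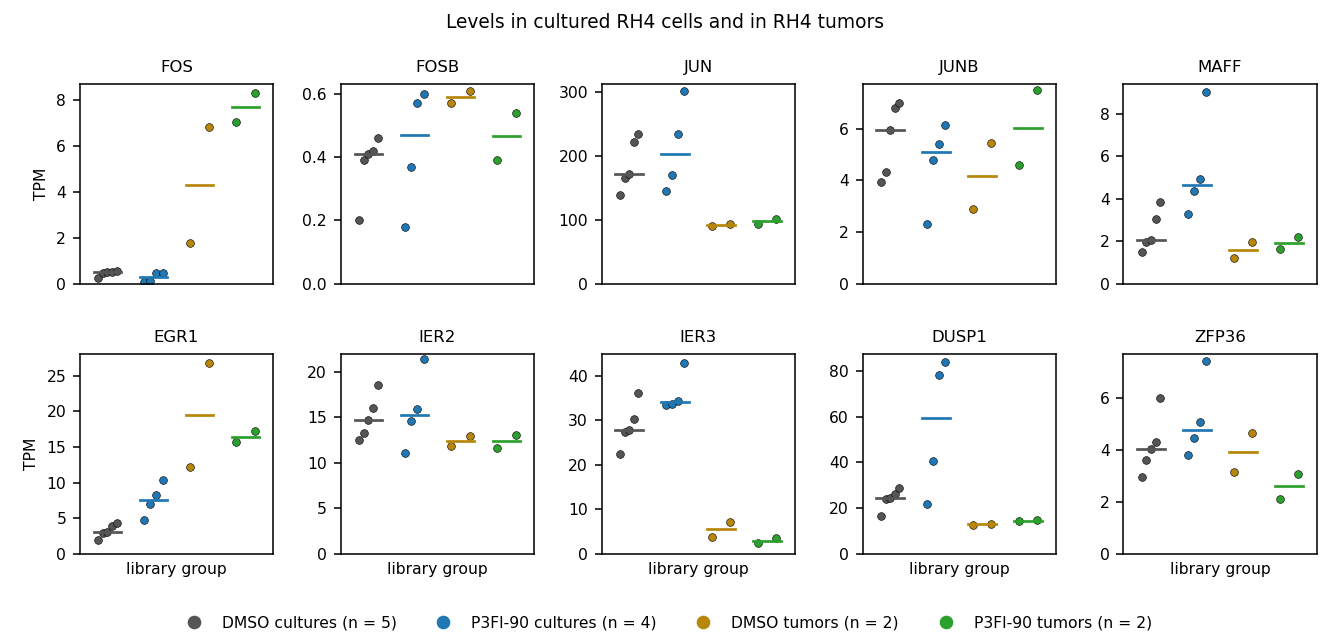
TPM of each immediate early gene (vertical axes, linear from 0, 1 panel per gene) in DMSO cultures at 6 h, 24 h and in the screen (n = 5), P3FI-90 cultures at 6 and 24 h (n = 4), DMSO tumors (n = 2) and P3FI-90 tumors (n = 2), points being libraries and bars medians. FOS and EGR1 are above the DMSO cultures in every tumor, IER3 and JUN are below them, and DUSP1 reaches 83.9 TPM in P3FI-90 cultures and at most 14.8 TPM in tumors.

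Single-cell RNA-seq at 16 h counted molecules by unique molecular identifiers (UMIs) in 12542 DMSO cells (median 8827 UMIs) and 10456 P3FI-90 cells (median 13256 UMIs) with at least 200 genes and under 15% mitochondrial UMIs. There was 1 library per treatment, so no test was made and the 95% intervals are exact Poisson or Clopper-Pearson intervals that cover counting error only. The libraries shared 34 barcodes, 0.25% and 0.3% of each. JUN was again the dominant member, at 385 UMIs per 1000000 UMIs of the library (CPM) in DMSO (54878 UMIs) and 408 with P3FI-90, a ratio of 1.06 (1.05 to 1.07). DUSP1 was the member with the highest ratio, at 11.7 and 16.9 CPM, 1.44 (1.36 to 1.54).

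Other members had lower levels in the P3FI-90 library. JUNB was at 8.45 CPM in DMSO and 4.80 with P3FI-90, a ratio of 0.57 (0.52 to 0.62). IER2 was at 34.9 and 20.8 CPM (0.60, 0.57 to 0.62) and IER3 at 44.6 and 29.1 (0.65, 0.63 to 0.68). EGR1 was at 3.31 and 2.49 CPM (0.75, 0.66 to 0.86), and its ratio moved with the depth of the cells. In cells with under 4000 UMIs EGR1 was at 6.00 CPM in DMSO and 3.19 with P3FI-90 (0.53), and in cells with at least 16000 UMIs at 2.67 and 2.64 CPM (0.99). In bulk at 24 h EGR1 lay above DMSO with P3FI-90 (mean 8.51 against 3.41 TPM), and IER3 overlapped DMSO. Time and assay both differ from the single cells and cannot be told apart. FOS was at 0.55 and 0.41 CPM, from 78 and 62 UMIs in all cells, and its ratio of 0.74 (0.52 to 1.05) reached 1, as did those of FOSB (0.89, 0.74 to 1.06) and MAFF (0.94, 0.77 to 1.15). ZFP36 was at 1.53 and 1.16 CPM (0.76, 0.62 to 0.93), and its ratio moved with depth too. It was 0.17 in cells with under 4000 UMIs, from 12 and 1 ZFP36 UMIs, and 0.38 in cells with 4000 to 8000. In cells with 8000 to 16000 UMIs it was 1.02, and in deeper cells 0.73. Summed without JUN, the members were at 108 and 78.5 CPM (0.73, 0.71 to 0.74).

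Depth differed between the libraries, so each cell was also thinned to 2000 UMIs, which left 11367 DMSO and 9129 P3FI-90 cells and set aside 1175 and 1327 shallower cells. A JUN UMI was then found in 50.5% of DMSO cells (49.5 to 51.4) and 51.3% of P3FI-90 cells (50.2 to 52.3), and without thinning in 81.1% and 83.8%. IER3 was found in 8.08% (7.58 to 8.59) and 4.62% (4.20 to 5.07), and IER2 in 6.55% (6.11 to 7.02) and 4.04% (3.65 to 4.47), with 27.2% and 21.8%, and 27.4% and 21.7%, of cells unthinned. DUSP1 went the other way, from 1.94% (1.70 to 2.22) to 2.86% (2.53 to 3.22) of cells, and from 11.2% to 17.8% unthinned. At least 1 of the 9 members other than JUN was found in 18.7% (18.02 to 19.5) of DMSO cells and 12.5% (11.8 to 13.2) of P3FI-90 cells. FOS was found in 15 and 4 thinned cells (0.132% and 0.0438%), a level at which no difference can be read. The ratio of the thinned shares was 0.45 for EGR1 (0.31 to 0.65) and 0.44 for ZFP36 (0.25 to 0.78), lower than the ratios of their CPM, and it leaves out the cells under 2000 UMIs. The cells are a single line, so no cells that should lack these genes could show how much of a share is free RNA.

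No cell of either library was a strong FOS cell, the most FOS UMIs in a cell being 2, and FOSB did not exceed 4. Of JUN, IER2 and IER3, the members with the most UMIs, IER3 was the most uneven, with up to 27 UMIs in a DMSO cell and 40 in a P3FI-90 cell, and the 1% of cells with most IER3 held 19.3 and 21.9% of its UMIs, against 7.4 and 6.5% for JUN. Of the 45 pairs of members, 1 in DMSO and 5 with P3FI-90 met in more thinned cells than their separate shares predict beyond the counting interval, and 0 in fewer. The DMSO pair was FOSB with JUNB, in 4 cells against 0.58 expected. Among the pairs with P3FI-90, IER3 met with DUSP1 in 21 cells against 12.1 expected, with JUNB in 10 against 3.88 and with FOSB in 6 against 1.34. JUNB also met with IER2 in 10 cells against 3.4 expected and with EGR1 in 3 against 0.35. Each pair with JUN lay within its interval in both libraries, among them JUN with IER3 in 483 DMSO cells against 463 expected. These are counts in sparse data, and no relation between the genes was read from them.

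**Figure D4:**
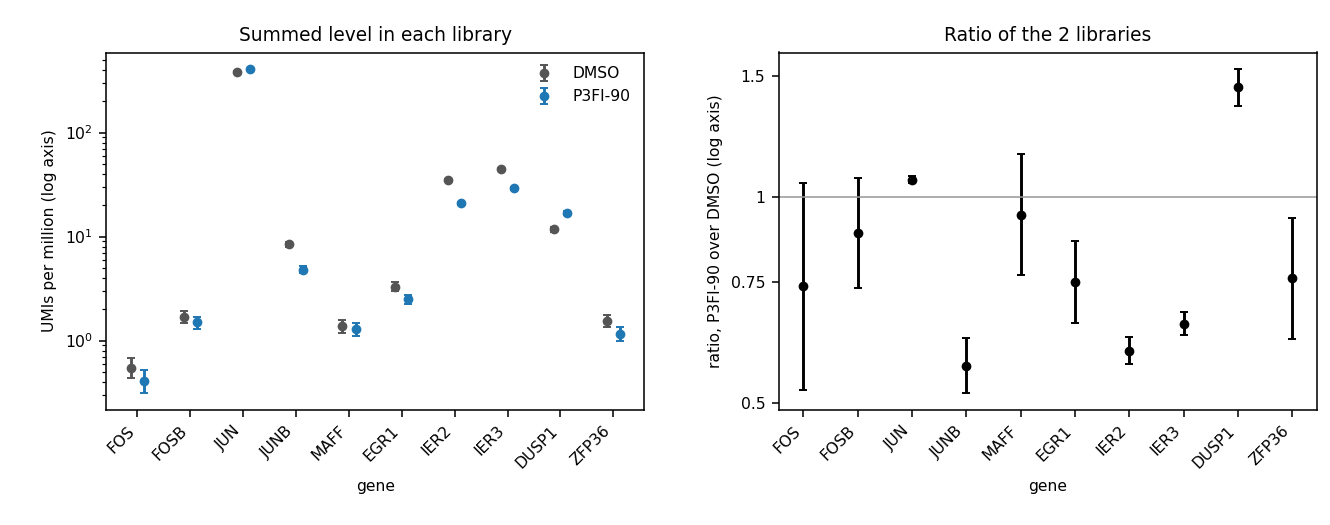
Left, CPM of each immediate early gene in the DMSO and P3FI-90 single-cell libraries at 16 h (vertical log axis) with exact 95% Poisson intervals; right, ratio of P3FI-90 to DMSO (vertical log axis) with its 95% counting interval and a line at 1. DUSP1 at 1.44 and JUN at 1.06 lie above the line, while JUNB, IER2, IER3, EGR1 and ZFP36 lie below it with intervals that do not reach it.

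Chromatin at the start sites was read from peak lists called in each library, without read counts, so a peak's presence and its fold enrichment were taken and no test was made. H3K4me3, the mark of active promoters, lay within 2 kb of the start site of 9, 10 and 10 members in DMSO replicates 1, 3 and 4 (62.9, 52.6 and 60.6% of 18241 start sites), and of 9, 10 and 10 members with P3FI-90 (63.2, 53.3 and 61.2%). The member without a peak was IER3, in replicate 1 of either treatment. FOS, with hardly any transcript, still had a peak in all 6 libraries, at 4.40 to 22.4-fold enrichment, percentile 4.5 to 37.2 among start sites with a peak. FOSB, also low in RNA, was at percentile 65.6 to 89.5.

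Open chromatin by ATAC-seq was called at 4 of 10 members in DMSO (EGR1, IER2, JUN and JUNB; 38.5% of start sites) and at 9 of 10 after 4 h of P3FI-63, IER3 being without (55.3% of start sites). The P3FI-63 library also had more peaks in all, 55987 against 30221, and each condition had 1 library. FOS went from no peak to a 13.5-fold peak and DUSP1 from none to a 7.89-fold peak, while JUN was at 10.8 and 20.8-fold and EGR1 at 11.5 and 17.03-fold. RNA polymerase II phosphorylated on serine 5, the form at promoters, was called at 8 of 10 members in DMSO and with P3FI-90 (40.1 and 25.3% of start sites). JUN was at 37.7 and 37.3-fold, percentile 98.6 and 98.7, and DUSP1 at 23.4 and 19.3-fold, percentile 93.8 and 92.7. IER2 had a 38.2-fold peak in DMSO, percentile 98.7, and none with P3FI-90.

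The serine 2 form, which marks elongation, was called at 1 member in DMSO (JUN; 7.02% of start sites) and at 5 with P3FI-90 (FOSB, JUN, JUNB, DUSP1 and ZFP36; 2.69%), where DUSP1 reached 11.8-fold, percentile 97.3. Total polymerase II was called at 3 members in DMSO and 1 with P3FI-90 (6.3 and 0.455% of start sites), in lists of 6031 and 521 peaks. H3K9me2, a substrate mark of KDM3B, was called at 6 and 3 members in replicate 1, where 80.2 and 79.8% of start sites had a peak, and at 0 members in the other 4 libraries (0.488 to 6.3%). H3K27me3 was called at 9 and 6 members (77.8 and 81.1%), and the heterochromatin protein HP1 at 0 and 1 (3.4 and 8.11%). Lists of such different lengths limit what a peak's presence can show.

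**Figure D5:**
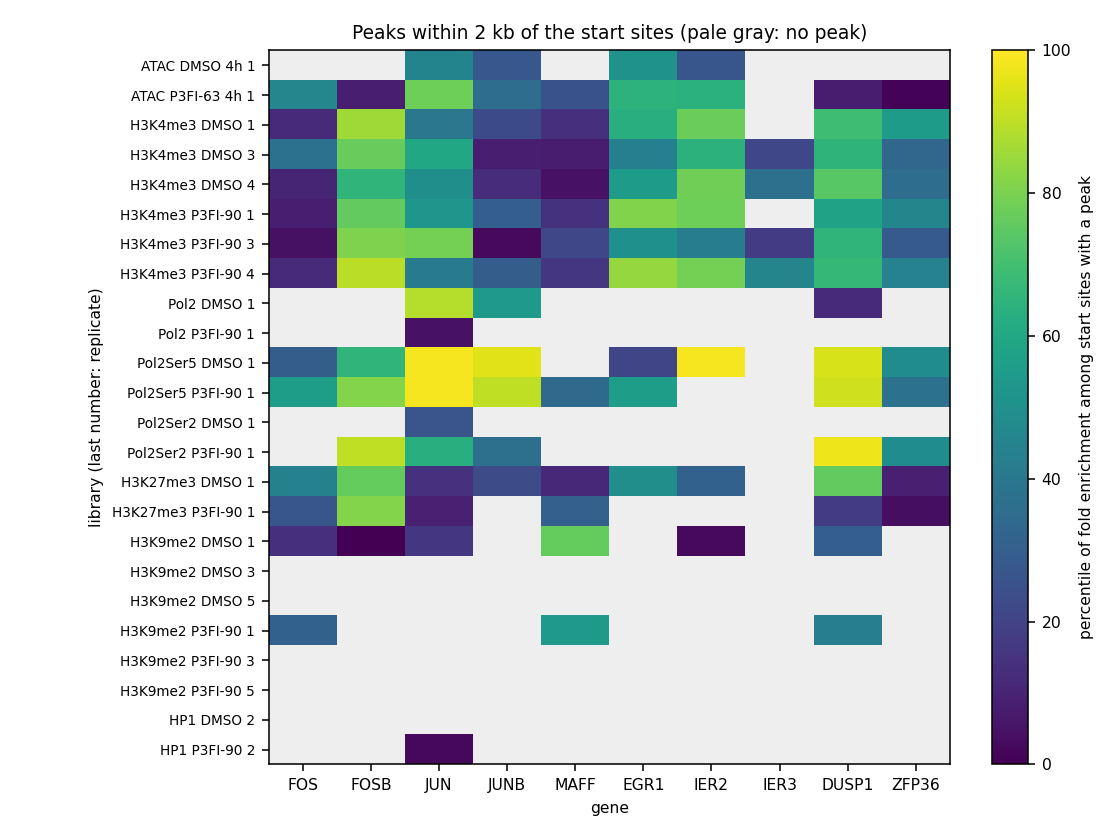
Peaks within 2 kb of the start site of each immediate early gene (columns) in each ATAC-seq and ChIP-seq library (rows, the last number being the replicate), colored by the percentile of the peak's fold enrichment among start sites with a peak in that library, pale gray marking no peak. H3K4me3 rows are filled for 9 or 10 genes, JUN and DUSP1 are at percentile 92.7 or higher for serine 5 polymerase II in both libraries, and IER3 has no peak outside H3K4me3.

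Across the 24 libraries with tables of all genes, which share runs and controls, the members did not move as a block. By Spearman's rho, a description over libraries that are not independent, MAFF and DUSP1 were most alike (0.87), followed by IER3 and DUSP1 (0.85), while FOS and JUN were least alike (-0.35). Without the P3FI-63 libraries at 24 h, which left 22, these values were 0.83, 0.81 and -0.61. The genes outside the list most like FOS were CCNA1, a cyclin (rho 0.83), the small GTPase RASD1 (0.83), OSER1-AS1 (0.80), SH2D5 (0.79) and STC1, a secreted glycoprotein (0.76). RASD1 ranged from 0.22 to 166 TPM, against 0.07 to 317 TPM for FOS. Those most like EGR1 were CD55, a complement regulator (0.85), the muscle gene XIRP2 (0.85), NFIL3 (0.82), KLF2 (0.81) and KLF4 (0.81). FOS and EGR1 themselves had a rho of 0.405, and 0.23 without the P3FI-63 libraries at 24 h.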

How the data were processed

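Per the study's methods, the authors aligned poly-A RNA-seq reads to hg19 with STAR and deposited RSEM TPM values. The single-cell files are deposited UMI counts from Cell Ranger 6.1.2, per the file headers. The authors called ChIP-seq and ATAC-seq peaks with MACS2 in each library, and the deposited columns hold the fold enrichment (a ratio) and −log10 p, the latter used in an alternative that kept peaks at or above its median.

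From these, log2(TPM + 1) was fitted with limma 3.58.1 (R 4.3.3, variance trend, mean of at least 1 TPM, Benjamini-Hochberg over all genes), using the 8 libraries at 24 h in a single fit and the 4 tumors in another. The fit was also run on simulated data, with independent noise in each library and the same spread per gene in every group. That run therefore does not cover paired replicates or a group whose libraries lie far apart. Replicate numbers paired the 24 h libraries: same-numbered libraries deviated together, with r of 0.571, 0.575 and 0.643 for DMSO with P3FI-90, 0.312 and 0.388 for DMSO with P3FI-63, and 0.314 and 0.402 for P3FI-90 with P3FI-63. The block on that number is among the alternatives. Counts of members after P3FI-63 were read among genes averaging 1 TPM over the DMSO and P3FI-90 libraries, a choice made after seeing the data. Libraries without replicates were compared by the log2 ratio, at 2-fold or more, with no p. Cells needed at least 200 genes and under 15% mitochondrial UMIs, doublets were not called here, and intervals are exact (scipy 1.17.1). A peak counted within 2 kb of the start site of 18241 protein-coding genes. Upstream sequence was read from hg19. The members, the other gene lists and the rule for named genes (all members, the 3 highest and 3 lowest changes called in each other list, ATF3, and the 5 genes most like FOS and EGR1) were chosen with earlier results of these data known. Tables of coding genes (2 libraries) entered no comparison. Hi-C libraries were not used here.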

Additional observations from a re-analysis of the deposited data

How the results depend on the processing

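Alternatives were another pseudocount (0.1), no filter or a mean of at least 5 TPM, median-ratio scaling, no variance trend, the replicate number as a block, fits of 2 groups, and each library left out. With FOS and FOSB counted, which passed the filter only through their P3FI-63 values, 5 members were higher after P3FI-63. That count was 5 with the replicate block (1358 genes called in all, against 292) and 2 in the fit of 2 groups (68 genes). It was 2 with any DMSO library left out (67 to 73 genes), and median-ratio scaling called 532 genes. Counts from fits with a lone P3FI-63 library are not given. For P3FI-63 against P3FI-90, 3 members, FOS and FOSB among them, became 2 with the replicate block (231 genes, against 83). The count was 2 with a pseudocount of 0.1 (67 genes), a mean of at least 5 TPM (58 genes) or median-ratio scaling (117 genes). It was 1 without a filter (145 genes), 1 without the trend (42 genes) and 0 in the fit of 2 groups (13 genes). With any P3FI-90 library left out it was 0 (13 to 18 genes). P3FI-90 against DMSO stayed at 0 members in all of these, with 0 to 3 genes called, and tumors at 0 members, with 20 to 1870 genes once a tumor was left out, a fit in which the lone sample is assumed to vary like the others. The cause of these shifts was not tested, beyond the fewer libraries in the fits concerned.

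Members near 0 changed sign. JUN after P3FI-63 was at -0.054 with the replicate block, 0.58 (SE 0.34) with median-ratio scaling and -0.002 to 0.34 with a library left out. Against P3FI-90 it was at -0.14 with the block and -0.21 to 0.32 with a library left out. With a library left out, P3FI-90 against DMSO ranged from -0.49 to 0.056 for JUNB, -0.17 to 0.037 for FOSB, -0.15 to 0.38 for JUN, -0.21 to 0.24 for IER2 and -0.20 to 0.057 for FOS. In tumors median-ratio scaling put EGR1 at 0.17 and IER2 at 0.29, and leaving out a tumor gave -0.67 to 0.41 for EGR1, -0.087 to 0.072 for IER2 and -0.031 to 0.40 for MAFF.

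In single libraries, with members under the filter counted too, a pseudocount of 0.1 put 1 member past 2-fold with IMMLG-5770, 2 with KUC100517N, and 1 higher and 1 lower after 6 h of P3FI-90. Against the mean of the 7 other screen libraries the counts were 0 for KUC100517N, 0 for KUC102648N and 1 for P3FI-63, and under median-ratio scaling 0 for KUC102648N. Thinning cells to 4000 UMIs gave a ratio of 0.716 for the share with at least 1 of the 9 members other than JUN (0.668 at 2000) and 1.18 for MAFF (0.521 at 2000). For peaks, a window of 500 bases put the members with a peak, summed over libraries, at 2 for H3K9me2, 6 for H3K27me3, 3 for the serine 2 form and 0 for HP1, and keeping peaks at or above the median −log10 p put them at 3, 6 and 0 for H3K9me2, H3K27me3 and HP1 and at 8 for ATAC-seq. Of the values of single genes and marks under every alternative, 434 kept direction and side of the threshold, 33 no longer passed, 10 newly passed, 20 changed sign and these 8 peak counts moved. TPM keeps no depth, so the counting error of FOS and FOSB in controls is unknown, and peak lists and single-cell libraries without replicates allow no test.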
